A study of Homo sapiens with 12 samples.

Results

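The membrane carriers for amino acids, glucose and monocarboxylates were followed in K562 cells, an established leukemia line that arose in the blast crisis of chronic myeloid disease, after 48 h with 10 µM FT671, a compound that blocks the deubiquitinase USP7, or with the solvent DMSO. Each treatment had 3 RNA-seq libraries of ribosome-depleted total RNA, and the files gave 1 read count per gene. The genes were chosen by symbol and annotation. They are the protein-coding genes of the solute carrier families SLC1A, SLC2A, SLC3A, SLC6A, SLC7A, SLC16A, SLC36A, SLC38A and SLC43A, with 1 further SLC7A gene set aside by the rule. That gave 88 of the 60609 genes listed, in 9 families. The symbol rule also took in SLC2A4RG and SLC7A6OS, which are named after a neighbouring or regulated carrier gene and do not encode carriers, and 86 members bear a plain family symbol. All libraries came from 1 cell line. The study describes the replicates as independent experiments, so the p-values measure the spread between experiments in this line.

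Solute carriers of these families move nutrients across the plasma membrane and the membranes of lysosomes. SLC2A proteins let glucose and related sugars pass down their gradient, and SLC16A proteins carry lactate, pyruvate and other monocarboxylates together with protons. Amino acids enter through several routes. SLC38A proteins and part of the SLC1A family take up small neutral amino acids with sodium, and other SLC1A proteins carry glutamate. SLC6A proteins take up glycine, taurine, creatine and neutral amino acids with sodium and chloride. SLC7A light chains exchange amino acids once they are joined to an SLC3A heavy chain. Proliferating leukemia cells depend on glutamine and leucine uptake, and leucine entry is one of the inputs that mTORC1 senses at the lysosome.

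The libraries held between 4555220 and 14250500 counts, and 3 counts, taken as the smallest detectable level, stood for 0.211 to 0.659 CPM, the usual per-library scaling of read counts. The groups overlapped in depth. Members held 0.361 to 0.376% of the counts in the DMSO libraries and 0.297 to 0.313% in the FT671 libraries. USP7 mRNA fell from 119 ± 12.2 to 33.0 ± 3.37 CPM (SD, n = 3 libraries each, log2 fold change -1.83, adjusted p = 2.65e-08 by edgeR's quasi-likelihood test). Of the erythroid genes that K562 cells are known to express, HBG1, HBG2 and HBZ rose and KLF1, TFRC and GATA1 fell, while HBE1 stood at 0.605 and 0.981 CPM and was not tested. Markers of other cell types were at 0 (MS4A1, COL3A1) or under 3 CPM in both groups, except EPCAM at 60.6 and 84.6 CPM. CPM are shares of a library, so fewer expressing cells and less RNA per cell cannot be told apart here.

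More tested members fell than rose after FT671, and most families held both falls and rises. The glutamine carrier SLC1A5, the leucine carrier SLC7A5, the glucose carrier SLC2A1, the glycine carrier SLC6A9 and SLC38A10 fell past the stricter of 2 thresholds, while SLC3A2, the partner chain of SLC7A5, and the glutamine carrier SLC38A5 rose. Enough counts for a test were found in 38 members. At an adjusted p-value of 0.05, 18 members fell, or 47.4% of those tested, where 26.5% of all 13895 genes tested fell. At the same threshold 10 members rose, or 26.3%, beside 23.6% of all genes tested, and 10 passed in neither direction. At 1e-05, the threshold of the study's methods, 5 members fell (13.2%, beside 4.13% of all genes tested) and 2 rose, where 1.79% of all genes rose. Every FT671 library lay below every DMSO library for 19 members (50.0%, against 30.3% of all genes tested) and above for 10 members (26.3%, against 26.8%). The median log2 fold change was -0.25 over the tested members and -0.010 over all genes tested, which without DMSO replicate 3 were -0.13 and -0.0054, and without a filter on low counts -0.0996 (65 members) and -0.053. The tested members ran from -1.34 for SLC6A9 to 1.40 for SLC2A4. Summed over all 88 members, the level went from 3643 ± 45.6 to 3086 ± 67.3 CPM, a ratio of 0.847. The counts at 1e-05 changed when a library was left out of edgeR's test. Without FT671 replicate 3 there were 0 falls and 0 rises (17 falls and 10 rises at an unadjusted p under 0.05), and without FT671 replicate 2 there were 2 falls and 0 rises (17 and 11 unadjusted). Rises numbered 0 without FT671 replicate 1 (10 unadjusted), 1 without DMSO replicate 2 and 4 without DMSO replicate 3, and without DMSO replicate 1 there were 3 falls and 1 rise. With all 6 libraries, DESeq2's Wald test gave 7 falls and 3 rises at 1e-05. Calls at 1e-05 over all genes were counted only in the fit given first (4.13% and 1.79%). The other counts at 1e-05 therefore have no such share beside them, and whether they changed more than those of all genes was not tested.

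**Figure D1:**
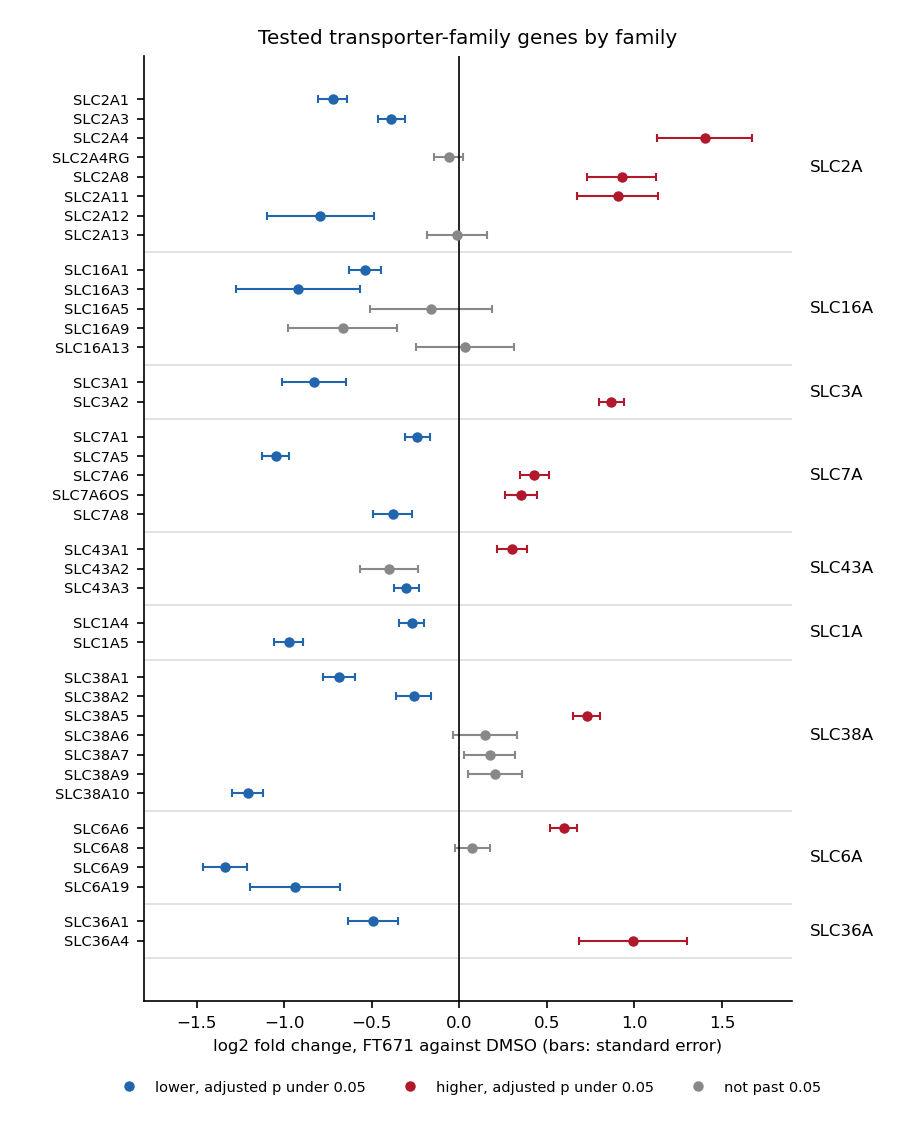
Log2 fold change of FT671 against DMSO (x axis) for each of the 38 tested members, grouped by family, with the standard error as a bar and colour for the side of an adjusted p of 0.05 in edgeR's quasi-likelihood test. Falls and rises stand side by side in SLC2A, SLC3A, SLC7A, SLC43A, SLC38A, SLC6A and SLC36A, whereas the called genes of SLC1A and SLC16A all fell.

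The SLC2A family, the facilitative glucose carriers, had 8 tested members of 15, of which 3 fell, 3 rose and 2 did not pass. SLC2A1 (GLUT1, chr1:42925353-42958893, minus strand), the basal glucose carrier of most proliferating cells, was at 305, 305 and 251 CPM in DMSO replicates 1, 2 and 3 and at 170.5, 179 and 173 CPM in the FT671 replicates. The FT671 libraries lay close together and all below the lowest DMSO library, and the gene fell 1.65-fold (log2 fold change -0.72, SE 0.083, adjusted p = 9.31e-06). SLC2A3 (GLUT3), a high-affinity glucose carrier, fell less, from 132, 126 and 143 CPM to 102, 106 and 98.6 CPM (log2 fold change -0.39, SE 0.078, adjusted p = 9.44e-04), again without overlap. Its near-identical copy SLC2A14 had 4 to 21 counts per library and was not tested, and reads shared between these genes could have been counted for either. The insulin-regulated carrier SLC2A4 (GLUT4) moved the other way at a low level, with 28, 15 and 6 counts in DMSO and 20, 20 and 49 in FT671, or 1.93, 1.37 and 1.10 against 4.43, 3.60 and 4.37 CPM. All FT671 libraries were above all DMSO libraries, and SLC2A4 had the largest rise of all tested members (log2 fold change 1.40, SE 0.27, adjusted p = 7.07e-04). SLC2A8 (GLUT8), an intracellular carrier, rose from 4.71 ± 0.295 to 9.04 ± 2.04 CPM (log2 fold change 0.93, adjusted p = 0.00135). SLC2A11 rose at a similarly low level (0.91, adjusted p = 0.0049). SLC2A12 passed only narrowly on the lower side (-0.79, adjusted p = 0.0434), and its adjusted p lay between 0.0664 and 0.124 when any 1 of the 6 libraries was left out. Of its exon bases, 51.2% also lie in exons of TBPL1 on the opposite strand, which rose (0.29). SLC2A13, a proton and myo-inositol symporter, had a log2 fold change of -0.013 (adjusted p = 0.956). SLC2A4RG, a transcription factor gene named after GLUT4, was at 111, 112 and 97.1 CPM in DMSO and 108, 96.0 and 103 CPM in FT671, with overlapping groups (adjusted p = 0.565). The family's summed level went from 552 ± 30.2 to 413 ± 3.11 CPM.

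Of 14 monocarboxylate carrier genes (SLC16A), 5 were tested, of which 2 fell and 3 did not pass. SLC16A1 (MCT1, chr1:112911847-112957593), which carries lactate and pyruvate in most tissues, was at 216, 214 and 272 CPM in DMSO and 155, 168 and 158 CPM in FT671. DMSO replicate 3 stood highest, the groups did not overlap, and SLC16A1 fell 1.45-fold (log2 fold change -0.54, SE 0.092, adjusted p = 2.76e-04). SLC16A3 (MCT4), the lactate exporter of glycolytic cells, was near the floor, at 3.66, 2.74 and 4.05 CPM in DMSO and 2.21, 0.539 and 2.32 CPM in FT671. It passed narrowly (log2 fold change -0.92, SE 0.35, adjusted p = 0.0426) and did not without FT671 replicate 2, where its log2 fold change was -0.58 (adjusted p = 0.15), nor without DMSO replicate 1 (0.121) or FT671 replicate 1 (0.0594). CSNK1D on the opposite strand covers 5.22% of its exon bases, had 5814 counts over the 6 libraries and fell (-1.02). SLC16A9 was at -0.67 (adjusted p = 0.0901), SLC16A5 at -0.16 (0.726) and SLC16A13 at 0.032 (0.935). BSG, the chaperone that brings MCT1 and MCT4 to the cell surface, rose from 736 ± 56.2 to 907 ± 17.9 CPM (log2 fold change 0.30, adjusted p = 0.00327). Within a library, SLC16A1 counts were 0.287, 0.274 and 0.403 of BSG counts in DMSO and 0.167, 0.188 and 0.176 in FT671. This ratio and those that follow were formed after the values were seen and carry no test. A second chaperone gene, EMB, was at 0 in all 6 libraries.

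SLC3A2 and SLC7A5 encode the heavy and the light chain of the large neutral amino acid exchanger (CD98 and LAT1), which brings leucine into the cell in exchange for glutamine. Their transcripts moved in opposite directions. The 250 bases before the RefSeq start of each gene (GRCh38.p14) are printed below, together with those of SLC38A5 and SLC43A1, since these genes carry the contrasts in the next paragraphs. The windows are chr16:87869508-87869757 (minus strand, SLC7A5), chr11:62881449-62881698 (plus strand, SLC3A2), chrX:48470261-48470510 (minus strand, SLC38A5) and chr11:57515703-57515952 (minus strand, SLC43A1). The RefSeq starts of SLC3A2 and SLC43A1 lie inside the GENCODE gene bounds, so other starts of these genes are not shown. Capitals mark an E-box, CACGTG, the site letters of MYC/MAX and MLX-type factors, and each sequence reads 5′ to 3′ toward the start.
SLC7A5: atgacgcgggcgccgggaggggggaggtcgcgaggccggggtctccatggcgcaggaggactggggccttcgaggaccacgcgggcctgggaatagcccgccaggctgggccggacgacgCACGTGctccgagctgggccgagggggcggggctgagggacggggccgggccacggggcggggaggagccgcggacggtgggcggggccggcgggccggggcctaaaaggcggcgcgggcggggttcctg
SLC3A2: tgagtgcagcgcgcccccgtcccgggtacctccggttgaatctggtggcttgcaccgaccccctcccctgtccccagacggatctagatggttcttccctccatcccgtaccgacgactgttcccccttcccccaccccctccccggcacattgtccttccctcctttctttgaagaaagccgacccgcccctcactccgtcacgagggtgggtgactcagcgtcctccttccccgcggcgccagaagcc
SLC38A5: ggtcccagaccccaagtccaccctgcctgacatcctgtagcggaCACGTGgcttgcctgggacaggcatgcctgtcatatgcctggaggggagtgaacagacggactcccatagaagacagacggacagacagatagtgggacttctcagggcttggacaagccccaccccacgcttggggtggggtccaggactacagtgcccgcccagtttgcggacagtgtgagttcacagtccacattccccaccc
SLC43A1: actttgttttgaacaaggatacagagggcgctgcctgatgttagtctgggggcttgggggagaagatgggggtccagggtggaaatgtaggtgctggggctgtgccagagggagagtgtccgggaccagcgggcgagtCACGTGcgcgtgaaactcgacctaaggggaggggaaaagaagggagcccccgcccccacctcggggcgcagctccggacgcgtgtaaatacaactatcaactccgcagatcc
The E-box, which is its own reverse complement, began 130 bases before the start in SLC7A5, 206 in SLC38A5 and 112 in SLC43A1, and the SLC3A2 window had none. Over the 30 tested members with a RefSeq promoter entry, 5 held CACGTG (16.7%, beside 6.34% of 35116 promoters of the same length), the others being SLC16A9 and SLC2A13. Of these 5, SLC7A5 fell, SLC38A5 and SLC43A1 rose and the other two did not pass the test. The 35116 promoters were not limited to tested genes, so the percentages compare unlike sets, and their difference was not tested. TTGCATCA, the core of the amino acid response element, was searched on both strands (TGATGCAA on the other) and was found in 0 of the 30 windows and in 0.772% of all promoters. These are letter matches in a fixed window and say nothing of binding, and an element placed elsewhere in a gene would be missed.

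SLC3A2 (chr11:62856004-62888880, plus strand) was at 415, 408 and 363 CPM in DMSO and 739, 732 and 697 CPM in FT671. Every FT671 library was above every DMSO library by a wide margin, and SLC3A2 rose 1.83-fold (log2 fold change 0.87, SE 0.072, adjusted p = 5.02e-07). SLC7A5 (chr16:87830023-87869507, minus strand) went from 359, 353 and 342 CPM to 187, 158 and 166 CPM. The groups were again far apart, and SLC7A5 fell 2.07-fold (log2 fold change -1.05, SE 0.076, adjusted p = 1.56e-07). ENSG00000260466, an RNA gene on the opposite strand over 5.69% of its exon bases, fell as well (-0.83). Within a library, the SLC3A2 count was 1.16, 1.16 and 1.06 times that of SLC7A5 in DMSO and 3.96, 4.62 and 4.21 times in FT671. The mean ratio went from 1.12 ± 0.0554 to 4.26 ± 0.335, and its replicates did not overlap. The other tested light chains did not share 1 direction. SLC7A6 (y+LAT2), which exchanges cationic for neutral amino acids, rose from 62.8, 61.0 and 68.0 CPM to 85.7, 89.5 and 82.5 CPM (log2 fold change 0.43, SE 0.082, adjusted p = 6.64e-04), with no overlap. Of its exon bases, 44.4% also lie in exons of SLC7A6OS on the opposite strand, which rose too (0.35), so their reads may be mixed. SLC7A8 (LAT2), a second neutral amino acid exchanger, fell from 42.1 ± 4.09 to 32.9 ± 3.78 CPM (-0.38, adjusted p = 0.0122), and its adjusted p was 0.0548 without DMSO replicate 2, 0.0645 without FT671 replicate 2 and 0.0717 without FT671 replicate 3. SLC7A7 had at most 10 counts in a library and SLC7A10 had 0 in all. Summed over these 5 light chains, the level was 458 ± 8.61 CPM in DMSO and 289 ± 17.6 CPM in FT671.

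**Figure D2:**
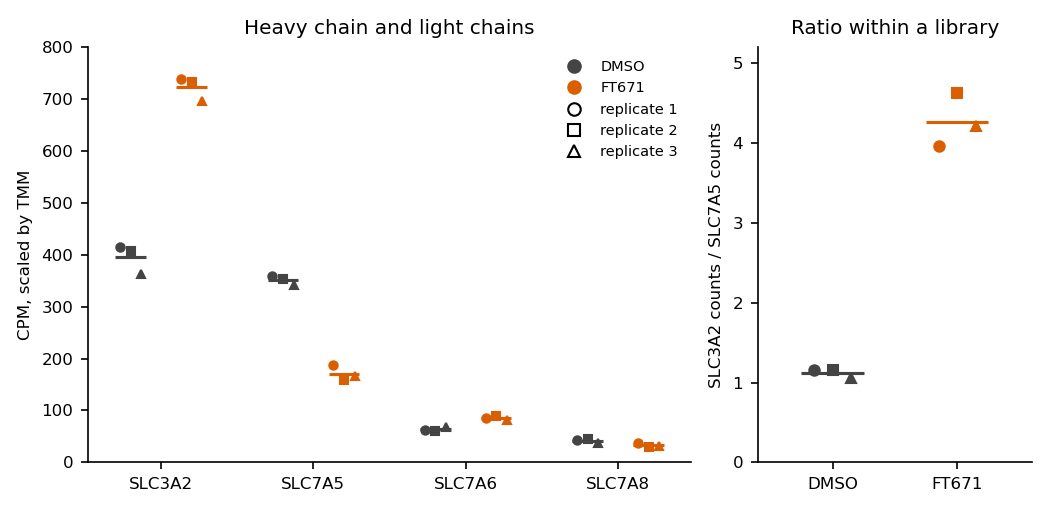
Left, TMM-scaled CPM (y axis) of the heavy chain gene SLC3A2 and of 3 light chain genes in each DMSO and FT671 library, with a line at the mean of 3 libraries. Right, the SLC3A2 count divided by the SLC7A5 count in each library, with means of 1.12 in DMSO and 4.26 in FT671.

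Of the remaining SLC3A and SLC7A genes, SLC3A1, the heavy chain of the cystine and dibasic amino acid exchanger, fell from 13.0, 11.7 and 18.2 CPM to 7.75, 7.73 and 7.84 CPM (log2 fold change -0.83, adjusted p = 0.00169). Its groups did not overlap, but 29.4% of its exon bases lie in exons of PREPL on the opposite strand, which fell as well (-0.94), and its usual light chain gene SLC7A9 had 0 counts. SLC7A1 (CAT1), the main cationic amino acid carrier of many cells, was at 155 CPM in each DMSO library and at 140.4, 125 and 129.6 CPM in FT671. It fell by 0.24 on the log2 scale (SE 0.072, adjusted p = 0.0136), with an adjusted p of 0.0897 without FT671 replicate 2 and 0.0637 without FT671 replicate 3, and after the length correction it was at -0.11 (0.191). SLC7A6OS, which lies opposite SLC7A6 and shares 64.5% of its own exon bases with it, rose as that gene did (0.35, adjusted p = 0.00559). SLC7A5P1, a pseudogene copy of SLC7A5, had 13 to 100 counts per library and rose (log2 fold change 1.5, adjusted p = 7.75e-05), opposite to its parent gene.

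All 3 SLC43A genes were tested, among them sodium-independent carriers of large neutral amino acids. SLC43A1 (LAT3) was at 67.2, 59.4 and 57.3 CPM in DMSO and 75.3, 76.8 and 75.6 CPM in FT671. The FT671 libraries were nearly equal and above all DMSO libraries, and SLC43A1 rose 1.23-fold (log2 fold change 0.30, SE 0.087, adjusted p = 0.0105). SLC43A3, which carries purine bases, fell by the same factor, from 122, 123 and 119 CPM to 97.8, 94.8 and 102 CPM (-0.30, adjusted p = 0.00346). SLC43A2 (LAT4) had means of 12.9 CPM in DMSO and 9.77 CPM in FT671 with overlapping libraries, which missed the threshold (-0.40, adjusted p = 0.057). Relative to SLC7A5, SLC43A1 counts went from 0.174 ± 0.0111 to 0.448 ± 0.0416 within a library.

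In the SLC1A family, 2 of 7 members were tested and both fell. SLC1A5 (ASCT2, chr19:46774883-46788594, minus strand), the high-capacity glutamine exchanger, had the highest level per exon length of all members in DMSO. It was at 684, 657 and 599 CPM in DMSO and at 371, 316 and 304 CPM in FT671. No FT671 library came near the DMSO libraries, and SLC1A5 fell 1.97-fold (log2 fold change -0.97, SE 0.085, adjusted p = 7.83e-07). A long noncoding RNA gene on the opposite strand, ENSG00000275719, covers 23.4% of its exon bases and fell too (-0.73). That gene had 11502 counts over the 6 libraries, so reads of the 2 genes may be mixed. SLC1A4 (ASCT1), which carries alanine, serine and cysteine, fell less, from 119.6, 116 and 116 CPM to 96.1, 94.6 and 100.4 CPM (-0.27, adjusted p = 0.0065), and after a correction for gene length it was at -0.15 (0.0803). The other 5 SLC1A genes, which include the glutamate carriers of nerve and glial cells, had at most 3 counts in any library.

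In the SLC38A family 7 of 11 members were tested, of which 3 fell, 1 rose and 3 did not pass. SLC38A1 (SNAT1), a glutamine importer of the plasma membrane, was at 308, 296 and 378 CPM in DMSO and 192, 200.1 and 215 CPM in FT671, and fell 1.61-fold (log2 fold change -0.69, SE 0.092, adjusted p = 3.47e-05). DMSO replicate 3 was the highest library, as it was for SLC16A1 and SLC38A2, and the groups did not overlap. SLC38A2 (SNAT2), the adaptive importer whose mRNA is known to rise on amino acid withdrawal, was at 96.3, 95.5 and 124 CPM in DMSO and 85.5, 91.7 and 84.5 CPM in FT671. It passed narrowly (-0.26, SE 0.10, adjusted p = 0.0439) and did not without DMSO replicate 3 (-0.15, adjusted p = 0.0766) or without any 1 of the FT671 replicates (0.0691 to 0.152). SLC38A5 (SNAT5, chrX:48458537-48470260, minus strand), which carries glutamine, histidine and glycine in either direction, rose from 60.1, 65.9 and 61.4 CPM to 100.1, 106 and 104 CPM. Both groups were tight and apart, with a 1.66-fold rise (log2 fold change 0.73, SE 0.079, adjusted p = 5.53e-06). Relative to SLC38A1, its count went from 0.193 ± 0.0304 to 0.512 ± 0.0254. SLC38A10, a little-studied member, fell 2.31-fold, from 86.5, 83.0 and 76.7 CPM to 34.3, 36.7 and 35.7 CPM (-1.21, SE 0.090, adjusted p = 1.93e-07). The FT671 values lay far below every DMSO library, and an antisense RNA over 7.71% of its exons fell as well (-0.92). SLC38A9, the lysosomal arginine sensor of mTORC1, was at 8.97, 10.1 and 10.9 CPM in DMSO and 9.52, 11.3 and 12.5 CPM in FT671, with overlapping groups (0.21, adjusted p = 0.289), and SLC38A6 (0.15) and SLC38A7 (0.17) did not pass either.

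**Figure D3:**
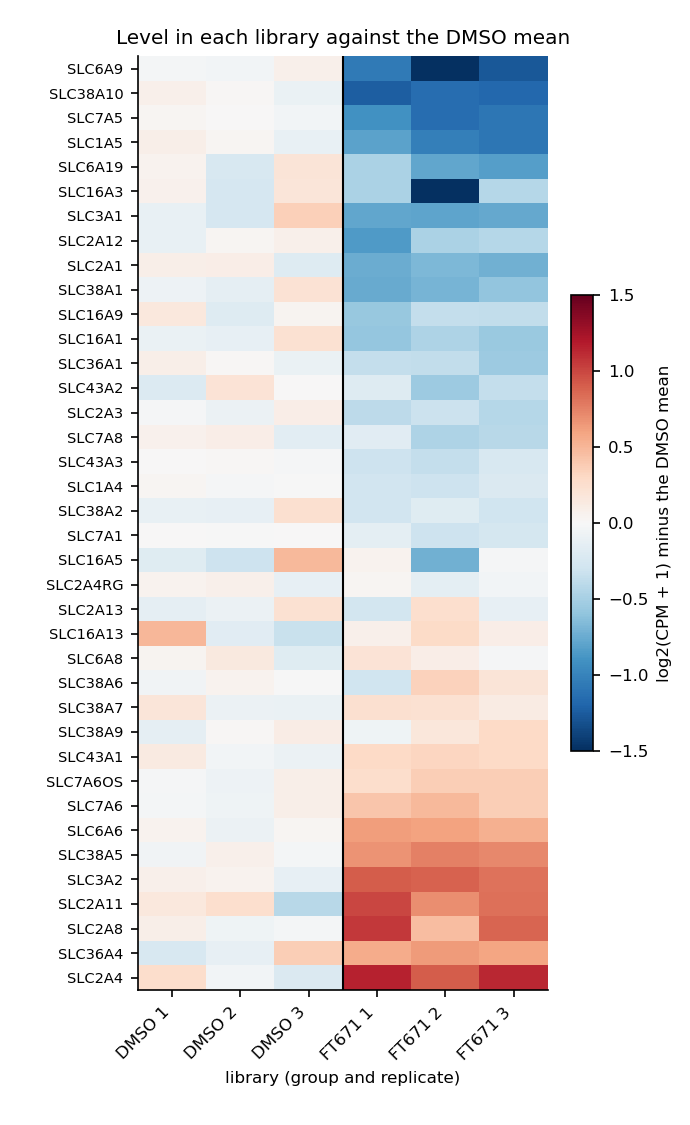
Level of each tested member in each of the 6 libraries (columns), as log2(CPM + 1) minus the mean of the DMSO libraries, ordered by fold change, with the colour scale ending at 1.5 in either direction. SLC6A9, SLC38A10, SLC7A5 and SLC1A5 are low in all 3 FT671 libraries, SLC3A2, SLC38A5 and SLC6A6 are high in all 3, and DMSO replicate 3 is paler or darker than its group for SLC16A1, SLC38A1, SLC38A2 and SLC2A1.

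The SLC6A family, carriers of neurotransmitters, osmolytes and amino acids, had 4 tested members of 19. SLC6A9 (GLYT1, chr1:43991500-44031467, minus strand), the glycine importer that erythroid cells use for heme synthesis, was at 46.2, 45.6 and 49.8 CPM in DMSO and 22.1, 14.9 and 19.0 CPM in FT671. It showed the largest fall of all tested members, 2.53-fold (log2 fold change -1.34, SE 0.13, adjusted p = 1.58e-06), and no library crossed to the other group. SLC6A6 (TauT), the taurine importer, rose from 77.2, 70.1 and 76.3 CPM to 116, 114 and 108 CPM (0.60, SE 0.078, adjusted p = 2.89e-05). The groups were apart, and the SLC6A6 count went from 1.58 ± 0.0782 to 6.20 ± 1.26 times that of SLC6A9. SLC6A8, the creatine importer, was at 69.3, 74.5 and 59.1 CPM in DMSO and 77.7, 72.1 and 66.6 CPM in FT671, which overlap (0.075, adjusted p = 0.551). SLC6A19 (B0AT1), known from kidney and gut, fell from 4.45 ± 0.814 to 2.36 ± 0.451 CPM (-0.94, adjusted p = 0.00776), with an adjusted p of 0.0623 without FT671 replicate 3. CLTRN, a partner that SLC6A19 needs at the surface in the kidney, was at a mean of 0.399 CPM in DMSO and lower in FT671, and was not tested. The other 15 SLC6A genes were too low to test.

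The SLC36A genes encode amino acid carriers, among them proton-coupled ones and lysosomal ones that act on mTORC1. SLC36A1 (PAT1) fell from 14.2, 13.4 and 12.3 CPM to 10.2, 10.1 and 8.82 CPM (log2 fold change -0.49, SE 0.14, adjusted p = 0.0104), with adjusted p-values of 0.0515 without DMSO replicate 1 and 0.0756 without FT671 replicate 3. SLC36A4 (PAT4) rose from 1.10, 1.28 and 2.21 CPM to 2.66, 2.88 and 2.76 CPM (0.99, SE 0.31, adjusted p = 0.0158). Its groups did not overlap, but the adjusted p was 0.106 without DMSO replicate 1, 0.058 without DMSO replicate 2 and 0.061 without FT671 replicate 3.

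On a per-length scale (RPKM, that is CPM per 1000 bases of exon), SLC1A5 led in DMSO at 194 ± 13.0, followed by SLC7A5 at 73.7 ± 1.74, SLC3A2 at 61.8 ± 4.39 and SLC2A1 at 43.4 ± 4.75 RPKM. The ranges of these 4 did not overlap one another, whereas those of SLC2A1, SLC2A4RG, SLC16A1 and SLC38A1 each overlapped with the next of these genes. In FT671 the order changed. SLC3A2 stood at 113 ± 3.53 and SLC1A5 at 99.0 ± 10.8 RPKM with overlapping ranges, and SLC7A5 followed at 35.7 ± 3.11 RPKM next to SLC2A4RG. Next came SLC2A1 (26.4 RPKM), whose range lay below that of SLC2A4RG. It overlapped with that of SLC38A5 (25.7 RPKM), which overlapped in turn with that of SLC16A1 (25.3 RPKM). The 6 genes SLC1A5, SLC3A2, SLC7A5, SLC2A1, SLC38A1 and SLC16A1 held 61.0 to 61.9% of all member counts in the DMSO libraries and 56.6 to 57.4% in the FT671 libraries. Within them, SLC1A5 went from 16.6 to 18.5% of member counts to 10.0 to 11.7%, and SLC3A2 from 10.0 to 11.3% to 23.0 to 23.8%.

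**Figure D4:**
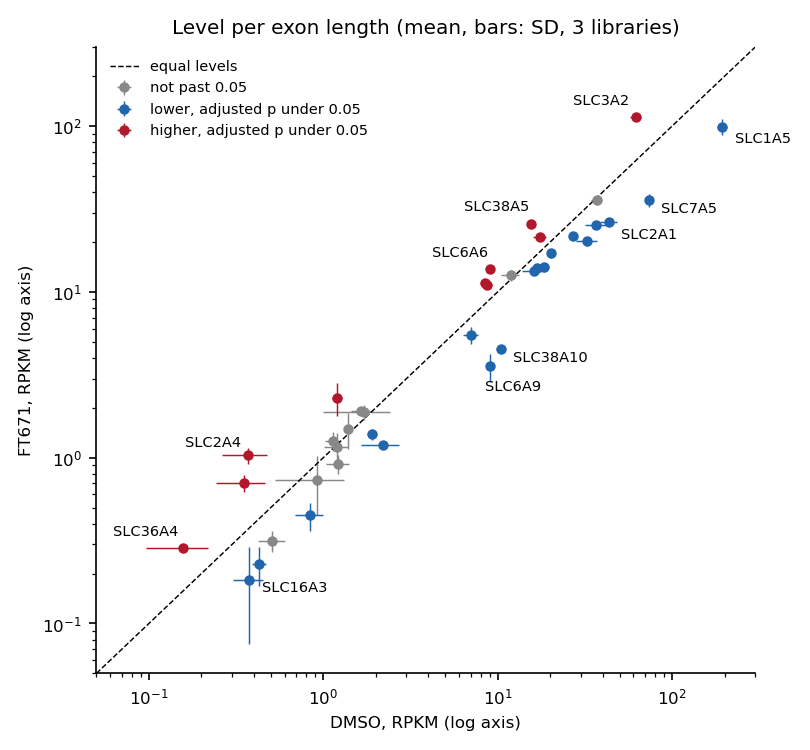
Mean RPKM over 3 libraries in DMSO (x axis) and FT671 (y axis) for the tested members, both on log axes, with bars for the SD and a dashed line of equal levels. SLC3A2 (61.8 and 113 RPKM) lies above the line and SLC1A5 (194 and 99.0 RPKM) and SLC7A5 (73.7 and 35.7 RPKM) below it.

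Among the 50 members not tested, 23 had 0 counts in all 6 libraries, which in the deepest library allows up to 0.211 CPM. Another 19 never exceeded 3 counts. The other 8 reached more than 3 in at least 1 library, with 21 as the highest count, and were SLC2A6, SLC2A9, SLC2A14, SLC16A4, SLC16A10, SLC7A7, SLC38A3 and SLC6A16. Genes at 0 included the liver and islet glucose carrier SLC2A2, the glutamate carriers SLC1A1 and SLC1A2, and the noradrenaline and dopamine carriers SLC6A2 and SLC6A3.

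The genes around these carriers were counted from fixed lists, beside the 26.5% of all genes that fell and the 23.6% that rose. Among 14 genes for transporter partners and trafficking, 10 were tested, of which 4 fell and 3 rose (median log2 fold change -0.34). The ubiquitin ligases NEDD4 (-0.93, adjusted p = 6.23e-06) and NEDD4L (-0.52), which act on surface carriers, fell, as did the arrestin-like ARRDC4 (-1.45) and TSC22D3 (-1.19). ARRDC4 was near the floor, with 27, 21 and 9 counts in DMSO and 4, 5 and 5 in FT671. TXNIP, which removes GLUT1 from the surface, rose (0.31, adjusted p = 0.0366), and so did CD44, a surface glycoprotein reported with carriers (0.48).

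Of 35 genes for amino acid sensing by mTORC1, 34 were tested, 8 fell, 11 rose and 15 did not pass (median 0.088). The falls included the arginine sensor paralog CASTOR2 (72.1 ± 5.64 to 25.8 ± 3.10 CPM, log2 fold change -1.51, adjusted p = 1.72e-07), the folliculin partners FNIP2 (-1.31, adjusted p = 3.86e-07) and FNIP1 (-0.69), the mTORC1 scaffold RPTOR (-1.16) and the Rag GTPase RRAGA (-0.76). RRAGD, another Rag GTPase, was low, with 16, 12 and 6 counts in DMSO and 15, 20 and 52 in FT671. It rose from 1.104, 1.096 and 1.105 CPM to 3.32, 3.60 and 4.63 CPM (1.85, adjusted p = 9.51e-05). At so few counts the near equality of the DMSO values says little of their precision. MTOR (0.32) and MLST8 (0.42) rose by less. Of the GATOR2 subunits, WDR59 (0.51), SEH1L (0.37) and SEC13 (0.26) rose, WDR24 fell (-0.79, adjusted p = 0.00189) and MIOS did not pass (0.15, adjusted p = 0.269). The leucine sensor SESN2 fell (-0.37, adjusted p = 0.00401).

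Enzymes downstream of uptake were counted in the same way. Of 19 genes for glutamine, asparagine and branched-chain amino acid metabolism, 16 were tested, with 3 falls and 7 rises (median 0.19). ARG2, mitochondrial arginase, fell from 82.5 ± 0.71 to 42.1 ± 1.91 CPM (-0.96, adjusted p = 8.29e-07) and ODC1 fell by 0.40, while GPT2 rose (0.66). Asparagine synthetase ASNS (0.17, adjusted p = 0.476) and glutamine synthetase GLUL (-0.11, adjusted p = 0.183) did not pass. Of 15 genes for glucose entry and lactate or pyruvate handling, 9 were tested, with 1 fall and 5 rises (median 0.22). Lactate dehydrogenase LDHA rose from 418 ± 10.3 to 677 ± 29.1 CPM (0.70, adjusted p = 1.87e-06) and the mitochondrial pyruvate carrier genes MPC1 (0.22) and MPC2 (0.31) rose, whereas hexokinase HK1 fell from 1029 ± 11.7 to 803 ± 5.61 CPM (-0.36, adjusted p = 3.43e-04).

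Of 15 genes for transcription factors linked to nutrient transport, 14 were tested, with 8 falls, 1 rise and 5 that did not pass (median -0.37). EPAS1, a hypoxia-inducible factor, fell from 157 ± 5.24 to 53.6 ± 4.81 CPM (-1.55, adjusted p = 1.96e-08), and CEBPB (-1.07), MAX (-0.69), MYC (-0.57, adjusted p = 1.22e-05) and MLXIPL (-0.55) fell. ATF4, the factor of the amino acid response, was the gene that rose, from 309 ± 13.1 to 402 ± 13.7 CPM (0.38, adjusted p = 3.95e-04).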

How the data were processed

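RNA-seq of K562 cells treated with DMSO or 10 µM FT671 for 48 h was analysed (3 libraries each). The authors deposited raw read counts per gene, which per the study's methods came from STAR alignment to hg38. The annotation release and the strand setting of the counting are not given in the sources used here, so reads of overlapping antisense genes could not be told apart. All files list the same 60609 genes, and 60295 matched GENCODE release 44 by Ensembl identifier for symbols, positions (GRCh38), exon length and GC content. The 314 others held 0.0609% of the counts. Total counts were 4555220 to 14250500 per library, and the floor of 3 counts covers counting error only.

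Genes were filtered with filterByExpr (minimum count 10, 13895 kept), and normalised by TMM. The contrast of FT671 with DMSO used the quasi-likelihood test of edgeR on the 6 libraries, with no covariate and with Benjamini-Hochberg adjustment over all genes tested. Tools were R 4.3.3, edgeR 4.0.16, limma 3.58.1, DESeq2 1.42.0, Python 3.11.15 and pandas 2.3.3. CPM used TMM-scaled totals, and RPKM divided them by the union exon length per 1000 bases. Standard errors (SE) were taken as the absolute log2 fold change over the square root of F. The fitting code was tested on simulated data with known fold changes.

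The members and the gene lists were chosen with earlier results of these data known, so no list was tested as a set. Values in every library are given for members past 1e-05, for the tested member of each family with the highest RPKM and the one past 0.05 with the largest log2 fold change in size, and for main carriers fixed by role (23 genes), with some others added. DESeq2's size factors and Wald test, library totals, other filters on low counts, corrections for length and GC (loess, span 0.3), the replicate number as a block, and leaving out each library were tried as alternatives. Promoters came from RefSeq (GRCh38.p14). The ChIP-seq samples of the series are not analysed here, and a few genes of the lists are not reported here.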

Additional observations from a re-analysis of the deposited data

How the results depend on the processing

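Of the 28 members called at 0.05, 19 kept direction and call under every alternative that tested them (10 falls, 9 rises). The 9 others were SLC2A12, SLC16A3, SLC7A1, SLC7A8, SLC1A4, SLC38A2, SLC6A19, SLC36A1 and SLC36A4, which kept their direction, and the cause was not tested. Over 16 alternatives and 38 genes, 539 of 602 fold changes kept both sign and call, 41 lost and 5 gained a call with the sign kept, and 17 changed sign. SLC43A2 gained one in 4 of these (adjusted p 0.0262 to 0.0403) and SLC6A8 with the GC correction and block (0.0471).

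The sign changes were all in genes without a call. SLC2A4RG was at 0.029 with the GC correction and 0.020 with GC and block. SLC2A13 was between -0.17 and 0.078 as single libraries were left out. It was at 0.0052 with DESeq2's size factors, 0.13 with the length correction, and 0.11 with length and block. SLC16A5 was between -0.37 and 0.10 as libraries were left out. SLC16A13 was at -0.0024 with library totals, -0.00060 without a filter, and -0.034 with the length correction, and between -0.12 and 0.49 as libraries were left out. SLC6A8 was then between -0.015 and 0.15.

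Falls at 1e-05 numbered 8 without a filter on low counts and rises 4 with length correction and block. Outside the main fit, calls at 1e-05 were not counted over all genes, so such counts of members have no share beside them. The members' median was -0.0996 without a filter, where 65 members were tested, -0.148 with the length correction, -0.150 with length and block and -0.190 with the GC correction. Leaving out 1 library gave 12 to 17 falls and 9 to 11 rises at 0.05, 0 to 7 falls and 0 to 4 rises at 1e-05, and medians of -0.27 to -0.13. Among all genes, of which 13301 to 14917 were then tested, 2973 to 4100 fell and 2522 to 3830 rose at 0.05. DESeq2's Wald test gave 15 falls and 9 rises, and the length correction 13 falls and 10 rises. Of all 13895 genes tested, 3121 fell and 3007 rose with the Wald test, and 3325 fell and 3848 rose with the length correction.

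With the replicate number as a block there were 18 falls and 10 rises, 6 and 2 at 1e-05, a median of -0.268, and no call of a member changed. Same-numbered libraries correlated at 0.115, -0.0605 and 0.14 in their deviations from the group means, and differently numbered ones between -0.168 and 0.125. Deviations from a mean of 3 libraries constrain one another, so these values cannot decide whether the numbers pair the samples. The study's methods state no covariate, so the replicate number was used as an alternative only. Depth limits what can be said of the 50 members not tested.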

Other observations

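Carriers of other nutrients were counted from a list of 36 genes, of which 28 were tested, 10 fell, 9 rose and 9 did not pass (median log2 fold change 0.080). These are 35.7% and 32.1% of the genes tested, beside 26.5% and 23.6% of all genes tested. SLC27A2, which imports and activates long-chain fatty acids, was at 129 ± 3.59 CPM in DMSO and 33.1 ± 4.42 CPM in FT671 (SD, n = 3 libraries each) and fell further than any tested amino acid, glucose or monocarboxylate carrier (-1.94, SE 0.096, adjusted p = 1.04e-08 by edgeR's quasi-likelihood test). The acetyl-CoA carrier SLC33A1 (-1.14), the sialic acid exporter SLC17A5 (-1.04), the sugar carrier SLC45A4 (-0.98, adjusted p = 6.23e-06) and the folate carrier SLC46A1 (-0.81) also fell.

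Among the rises were the nucleoside carrier SLC29A2, from 34.0 ± 2.03 to 76.8 ± 0.795 CPM (1.17, SE 0.089, adjusted p = 2.31e-07), and SLC5A6, which imports biotin and pantothenate, from 60.0 ± 5.46 to 110.2 ± 4.67 CPM (0.86, SE 0.086, adjusted p = 2.68e-06). The reduced folate carrier SLC19A1 (0.54) and the myo-inositol importer SLC5A3 (0.55) rose by less. SLC29A1, another nucleoside carrier, was at 198 ± 15.4 and 210.2 ± 8.57 CPM and did not pass (0.085, adjusted p = 0.374).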
